A study of Mus musculus with 7 samples.

Results

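The cholangiocyte and ductular reaction genes are a set of 8 genes, chosen by name from the 55487 Ensembl genes in the count table: Krt8, Krt18, Krt7, Krt19, Sox9, Epcam, Cd24a and Spp1. They were followed in bulk RNA-seq of mouse precision-cut liver slices (PCLS), thin discs of liver kept alive in medium. The slices came from livers of healthy male BALB/c mice, aged 12 to 30 weeks in the study's methods, and all were collected on day 3 of culture. The CTR group held 3 libraries from slices in medium without valproic acid, and the VPA group held 4 libraries from slices in medium with 2.5 mM valproic acid, an inhibitor of class I histone deacetylases. The comparison asks which transcripts differ between slices kept with and without VPA. The titles also carry a slice culture number, and cultures 71, 72 and 74 each gave 1 CTR and 1 VPA library while culture 73 gave 1 VPA library only. The study's methods define a biological repeat as a different liver, while the labels do not name the animal behind a library or say what a slice culture number stands for.

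Cholangiocytes are the epithelial cells that line the bile ducts of the liver. In many liver injuries, small irregular strands of duct-like cells expand around the portal tracts, which is called the ductular reaction. Keratin 7 and keratin 19 are the filament proteins that pathologists use to tell duct cells from hepatocytes, whereas keratin 8 and keratin 18 form the filaments of both cell types. Sox9 is a transcription factor of duct cells and of hepatocytes that take on duct features, Epcam and Cd24a encode surface glycoproteins, and Spp1 encodes osteopontin, a secreted matrix protein that duct cells and activated macrophages make.

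The 3 keratin promoters are shown because keratins 8 and 18 are obligate partners in a filament and their transcripts carried most of the counts, and because Krt7 is the duct keratin on the same chromosome. All are on chromosome 15 in GRCm38. Krt8 (ENSMUSG00000049382) spans chr15:101996698-102004482 on the minus strand, Krt18 (ENSMUSG00000023043) spans chr15:102028180-102032027 on the plus strand, and Krt7 (ENSMUSG00000023039) spans chr15:101411043-101430313 on the plus strand. The RefSeq starts of Krt8 and Krt18 were 23.9 kb apart, and the genes are transcribed away from each other. Each window below runs 5′ to 3′ on the strand of its gene, from 250 bases before the RefSeq start to 30 bases from it (RefSeq on GRCm38.p6), at chr15:102004313-102004592 for Krt8, chr15:102027966-102028245 for Krt18 and chr15:101412153-101412432 for Krt7. Capitals mark matches to the motifs searched.
Krt8: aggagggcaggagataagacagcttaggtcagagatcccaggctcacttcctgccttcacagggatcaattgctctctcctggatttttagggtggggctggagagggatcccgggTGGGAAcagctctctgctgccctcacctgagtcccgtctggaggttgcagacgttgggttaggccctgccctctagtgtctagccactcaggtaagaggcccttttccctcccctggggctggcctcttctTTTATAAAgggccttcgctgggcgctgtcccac
Krt18: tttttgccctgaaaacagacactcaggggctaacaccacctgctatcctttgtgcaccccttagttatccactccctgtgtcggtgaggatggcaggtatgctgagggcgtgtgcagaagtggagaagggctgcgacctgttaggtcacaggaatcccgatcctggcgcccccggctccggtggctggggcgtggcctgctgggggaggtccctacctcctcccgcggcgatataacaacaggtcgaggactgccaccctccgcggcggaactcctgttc
Krt7: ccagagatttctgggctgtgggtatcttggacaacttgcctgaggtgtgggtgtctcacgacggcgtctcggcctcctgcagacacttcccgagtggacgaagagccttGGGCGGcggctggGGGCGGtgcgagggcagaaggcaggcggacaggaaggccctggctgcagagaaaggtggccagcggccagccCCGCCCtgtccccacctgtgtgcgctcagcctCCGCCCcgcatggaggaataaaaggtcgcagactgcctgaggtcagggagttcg

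The motifs searched on both strands were the TATA box (TATAAA), the GC box (GGGCGG), AP-1 (TGANTCA), TEAD (GGAATG), RBPJ (TGGGAA) and a SOX motif (AACAAT). The Krt8 window held an RBPJ match 134 bases before the RefSeq start and a pair of overlapping TATA box matches, 1 on each strand, beside the start. The Krt7 window held 4 GC box matches, at −141, −128, −56 and −24, while the Krt18 window held none of the 6 motifs. These letters are common: of 32851 windows of this length, 13.1% held the TATA box, 34.7% the GC box and 23.8% the RBPJ letters, and 7.5%, 13.9% and 10.3% held those of AP-1, TEAD and SOX. The GC content was 58.6% for Krt8, 61.4% for Krt18 and 65.7% for Krt7. The RefSeq table held a window for 5 of the 8 genes, which were these 3, Epcam and Spp1.

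The genes were measured by 3′ end counting, in which each transcript gives reads only near its 3′ end, so that counts of different genes can be set side by side without division by length. The libraries held 1400887 to 4773750 counts on genes. Levels are given in CPM, for which each count was divided by its library's total over the genes tested, with TMM scaling. On this scale 3 counts correspond to 0.591 to 2.41 CPM depending on the library. This is the level that a count of 0 allows, covering counting error only. The share of genes listed at 0 in a library although they had at least 10 CPM on average in the others was 0.89% to 2.59% in the CTR libraries and 4.09% to 10.6% in the VPA libraries, highest in VPA replicate 1. A count of 0 need not mean that the RNA was missing, since Ass1, an abundant urea cycle gene of hepatocytes, was listed at 0 in every library. Mitochondrial genes took 14.5% to 27.7% of the counts in the CTR libraries and 23.9% to 32.5% in the VPA libraries.

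The 8 genes together took 0.160% to 0.316% of all counts in the CTR libraries and 0.107% to 0.182% in the VPA libraries. Over the pooled counts of all libraries, Krt18 made up 53.9%, Krt8 22.6% and Spp1 15.8%, all genes that cells other than cholangiocytes also express. The order of Krt8 and Spp1 was not the same in every library, since Spp1 was above Krt8 in VPA replicates 2 and 3. Sox9 made up 5.84%, and the remaining 4 genes each stayed under 1%, at 0.961% for Cd24a, 0.411% for Epcam, 0.361% for Krt7 and 0.182% for Krt19. Of the genes that define duct cells, Krt19 was at 0 in 5 of 7 libraries, Krt7 in 3 and Epcam in 1, and where counted none of them exceeded 14.6 CPM. The summed level of the 8 genes was therefore mostly that of genes shared with other cells, and it does not measure duct cells alone.

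Krt8 and Krt18 were the members with lower levels in the VPA libraries at an unadjusted p under 0.05, while none of the members passed after adjustment over all genes. In edgeR's quasi-likelihood test, 7 of the 8 genes passed the filter on low counts, which left out Krt19, and 0 of 7 had an adjusted p under 0.05, against 1 of all 10876 genes tested (0.00919%), Creb3l3, which was named after its value was seen. At an unadjusted p under 0.05, 2 members were lower and 0 were higher, where 4.62% of all genes tested were lower and 3.65% were higher. With DESeq2, the tool named in the study's methods, 0 of the 8 members passed at an adjusted p under 0.05, where 0.754% of 15261 genes were lower and 0.256% were higher. There, 3 members had an unadjusted p under 0.05, Krt8 and Krt18 at a lower level and Krt19 at a higher level, where 2.69% of 25878 genes were lower and 1.86% were higher. The median log2 fold change of the 7 members tested was −0.38, and that of all genes tested was −0.06. Without VPA replicate 1 the members' median was 0.029. With slice culture as a block, a fit that compares the CTR and VPA libraries of cultures 71, 72 and 74 and in which VPA replicate 1 has no partner, 1 member was lower (Krt18) and 0 were higher at an unadjusted p under 0.05, where 4.67% of all genes were lower and 3.31% were higher. In that fit the members' median was −0.0062 and 0 of all genes had an adjusted p under 0.05. In bulk slices, fewer cells of a type and less RNA per cell cannot be told apart.

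**Figure D1:**
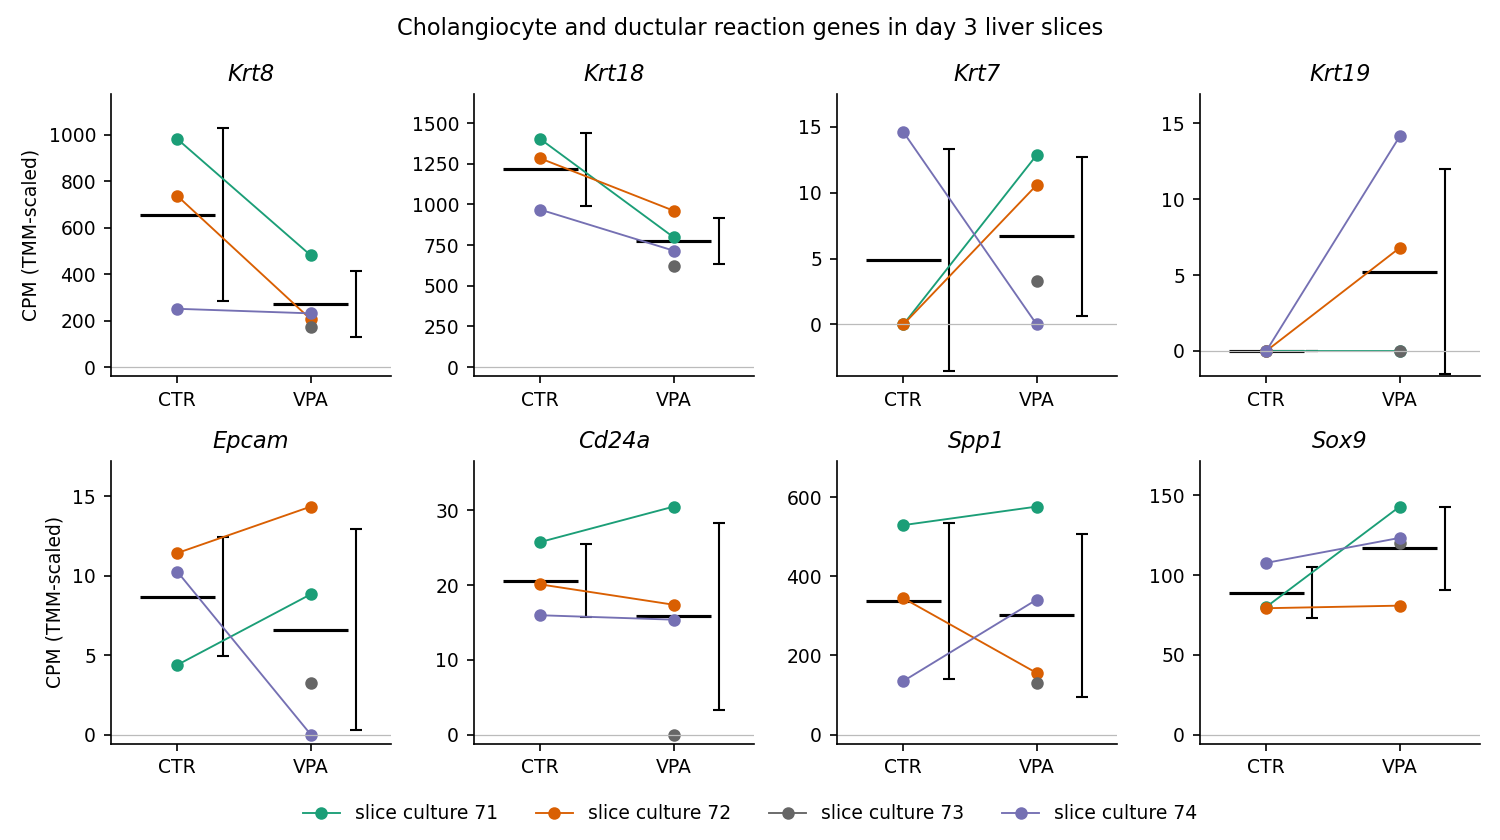
Level of each of the 8 genes in CPM after TMM scaling (y axis, linear, different in each panel) in the 3 CTR and 4 VPA libraries (x axis). Points are libraries, coloured by slice culture and joined where a culture gave a CTR and a VPA library, and black lines with bars are the group mean and SD. All 4 VPA libraries lie below all 3 CTR libraries for Krt18 alone.

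Krt18, the type I keratin of simple epithelia, was the most abundant member. Its level was 1283, 967 and 1401 CPM in CTR replicates 1 to 3 and 624, 715, 797 and 961 CPM in VPA replicates 1 to 4. All VPA libraries were below all CTR libraries, but the margin was narrow, since the lowest CTR library and the highest VPA library were 967 and 961 CPM. The means were 1217 ± 224 CPM (SD, n = 3) and 774 ± 143 CPM (SD, n = 4), so that the VPA mean was 63.6% of the CTR mean. The exact permutation test over the 35 regroupings of the libraries gave p = 0.0286 (two-sided), the smallest p it can give. In edgeR's test the log2 fold change was −0.65 (SE 0.199), with an unadjusted p of 0.0120 and an adjusted p of 0.447. Krt18 was the only member without overlap between the groups, where 7.41% of all genes tested lay wholly lower with VPA and 4.44% wholly higher.

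Krt8, the type II keratin that pairs with keratin 18, showed a wider spread. Its level was 737, 251 and 982 CPM in CTR replicates 1 to 3 and 172, 231, 481 and 205 CPM in VPA replicates 1 to 4. CTR replicate 2 lay within the VPA range and VPA replicate 3 lay above that CTR library, so the groups overlapped. The means were 657 ± 372 CPM (SD, n = 3) and 272 ± 141 CPM (SD, n = 4), with an exact permutation p of 0.114 (two-sided). The log2 fold change in edgeR was −1.27 (SE 0.512), with an unadjusted p of 0.0400 and an adjusted p of 0.575. In edgeR refits the unadjusted p was above 0.05 without CTR replicate 1 (0.0909) or 3 (0.147) and without VPA replicate 1 (0.0909), 2 (0.0924) or 4 (0.0892), and the log2 fold change was between −1.19 and −0.89 in these. It was also above 0.05 with slice culture as a block (−0.99, edgeR unadjusted p = 0.0559, adjusted p = 0.632), with the replicate number as a block (0.0631) and in limma-voom (0.0599). The replicate number sets CTR replicate 1 of culture 72 beside VPA replicate 1 of culture 73.

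The ratio of the partners did not separate the groups. Krt8 stood at 57.5%, 25.9% and 70.1% of the Krt18 level in CTR replicates 1 to 3, and at 27.5%, 32.3%, 60.3% and 21.4% in VPA replicates 1 to 4. The highest value in each group was that of slice culture 71. Within the slice cultures, the VPA library had 56.9%, 74.9% and 73.9% of the Krt18 level of its CTR library in cultures 71, 72 and 74. For Krt8 it had 49.0%, 27.9% and 92.1%. Both keratins were thus lower with VPA in 3 of 3 cultures, and for Krt8 the difference in culture 74 was 251 against 231 CPM. How many of all genes keep the same direction in 3 of 3 cultures was not counted. With slice culture as a block the log2 fold change of Krt18 was −0.55 (SE 0.141, edgeR unadjusted p = 0.0150, adjusted p = 0.554).

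Krt7, the type II keratin of duct cells, was counted in some libraries of both groups. Its level was 0, 14.6 and 0 CPM in CTR replicates 1 to 3 and 3.26, 0, 12.8 and 10.6 CPM in VPA replicates 1 to 4, from at most 74 counts in a library. The highest library and 2 of the 3 libraries at 0 were CTR libraries. The means were 4.86 ± 8.42 CPM (SD, n = 3) and 6.67 ± 6.04 CPM (SD, n = 4), with an exact permutation p of 0.8286. The log2 fold change was 0.38 with an SE of 1.92 (edgeR adjusted p = 0.981). It was 3.59 (SE 4.48) with slice culture as a block and 2.95 with the replicate number as a block. It was 6.70 without CTR replicate 2, the only CTR library with counts, and −0.18 without CTR replicate 1 and −0.19 without CTR replicate 3.

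Krt19 (ENSMUSG00000020911, chr11:100140810-100148665, minus strand), the type I keratin most specific to duct cells among these genes, had 0 counts in all 3 CTR libraries. It had 46 counts in VPA replicate 2 (14.1 CPM) and 9 in VPA replicate 4 (6.80 CPM), and 0 in VPA replicates 1 and 3. The libraries at 0 allow up to 0.591 to 2.41 CPM each, covering counting error only. The VPA mean of 5.24 ± 6.75 CPM (SD, n = 4) was at least 16.5-fold higher than the level that 3 counts over the CTR group allow, but it rested on 2 of 4 libraries, and the exact permutation p was 0.429. Krt19 was not tested in edgeR because of the low-count filter, and DESeq2 gave an adjusted p of 0.498. Krt7 and Krt19 were counted together only in VPA replicate 4, so the type II and type I duct keratins did not appear as a pair in the other libraries with counts of either.

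The 5 tested genes whose levels over the 7 libraries were most like those of Krt19 were Gm22317, Gm22634, Gm22068, Gm26444 and Gm25679, all small nuclear RNA genes with nearly the same counts as each other. Their root mean square difference from Krt19, on centred log2 CPM, was 0.838 to 0.862. Gm22317 was at 28.9 and 13.6 CPM in VPA replicates 2 and 4, the libraries where Krt19 was counted, and at 0.788 to 5.88 CPM in the others. Copies of small nuclear RNA genes share reads, so these 5 are uncertain as separate genes.

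**Figure D2:**
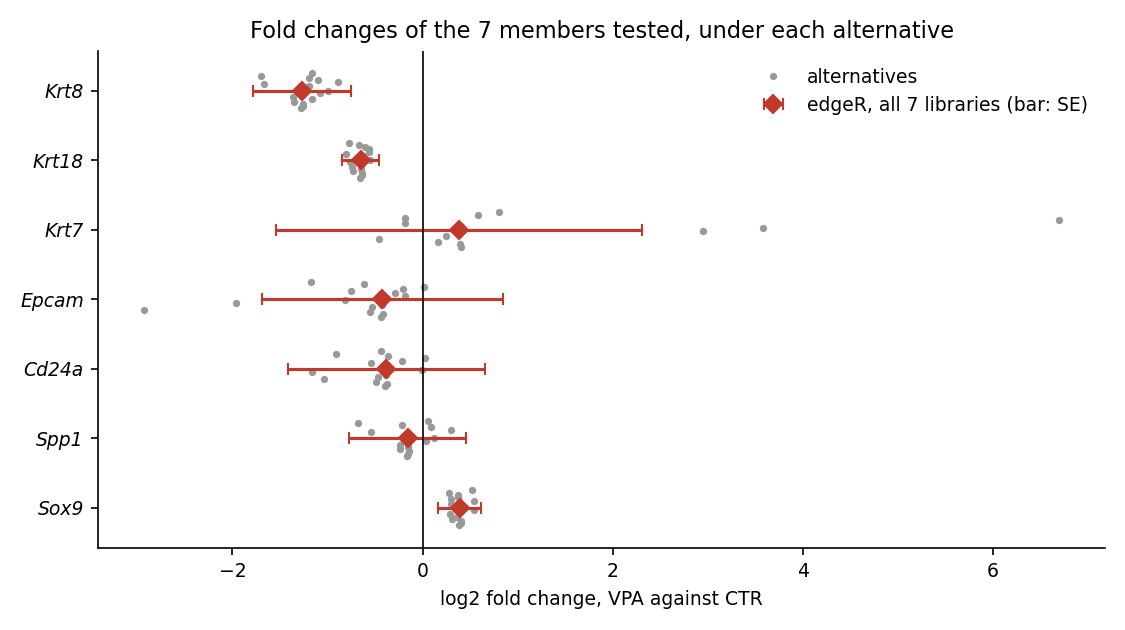
Log2 fold change of VPA against CTR (x axis) for the 7 members tested (y axis). Red diamonds with bars are edgeR's estimate over all 7 libraries and its SE, and grey dots are the same value with another tool, normalization, filter or block, or with 1 library left out. The values of Krt18 lie between −0.80 and −0.55 and those of Krt8 between −1.69 and −0.89, all below 0, whereas those of Spp1, Epcam, Cd24a and Krt7 fall on both sides of 0.

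Sox9 (ENSMUSG00000000567, chr11:112782224-112787760, plus strand), the transcription factor of the set, was measured in every library. Its level was 79.2, 108 and 80.0 CPM in CTR replicates 1 to 3 and 120, 123, 143 and 80.8 CPM in VPA replicates 1 to 4. VPA replicates 1 to 3 were above all CTR libraries, and VPA replicate 4 was level with the lowest CTR libraries. The means were 89.0 ± 16.2 CPM (SD, n = 3) and 117 ± 26.0 CPM (SD, n = 4), with an exact permutation p of 0.143. The log2 fold change was 0.39 (SE 0.228, edgeR adjusted p = 0.748). Within the slice cultures the VPA library had 179%, 102% and 115% of the level of its CTR library in cultures 71, 72 and 74. Sox9 was therefore at a higher value with VPA in 3 of 3 cultures, by 1.61 CPM in culture 72, and did not pass the test. The share of all genes with the same direction in 3 of 3 cultures was not counted. The unadjusted p of Sox9 in edgeR was 0.0292 without VPA replicate 4 (adjusted p = 0.401), 0.168 with slice culture as a block (adjusted p = 0.711) and 0.0436 with the replicate number as a block (adjusted p = 0.544). That last block sets libraries of cultures 72 and 73 side by side as replicate 1.

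Epcam (ENSMUSG00000045394, chr17:87635979-87651129, plus strand), an adhesion protein of duct and progenitor cells that adult hepatocytes lack, stayed at low levels. Its level was 11.4, 10.2 and 4.39 CPM in CTR replicates 1 to 3 and 3.26, 0, 8.83 and 14.3 CPM in VPA replicates 1 to 4. VPA replicate 4 was the highest and VPA replicate 2 the lowest of all 7 libraries. The means were 8.69 ± 3.77 CPM (SD, n = 3) and 6.61 ± 6.32 CPM (SD, n = 4), with an exact permutation p of 0.629. The log2 fold change was −0.42 with an SE of 1.27 (edgeR adjusted p = 0.968). It was 0.013 without VPA replicate 2, −0.82 with slice culture as a block and −2.93 in limma-voom (adjusted p = 0.349).

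Cd24a (ENSMUSG00000047139, chr10:43578284-43584265, plus strand), a small anchored glycoprotein of progenitor and blood cells, had levels of 20.1, 16.0 and 25.8 CPM in CTR replicates 1 to 3. In VPA replicates 1 to 4 the levels were 0, 15.4, 30.5 and 17.4 CPM. VPA replicate 1, the library with the most unexpected zeros, was the only one without counts, and the other 3 VPA libraries spanned the CTR range. The means were 20.6 ± 4.92 CPM (SD, n = 3) and 15.8 ± 12.5 CPM (SD, n = 4), with an exact permutation p of 0.6. The log2 fold change was −0.38 with an SE of 1.04 (edgeR adjusted p = 0.968). It was 0.029 without VPA replicate 1 and −0.0062 with slice culture as a block.

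Spp1 (ENSMUSG00000029304, chr5:104435118-104441050, plus strand), the secreted member, varied more between the libraries of a group than between the groups. Its level was 345, 135 and 530 CPM in CTR replicates 1 to 3 and 131, 341, 576 and 156 CPM in VPA replicates 1 to 4. Each group held low and high libraries, and the highest in each came from slice culture 71. The means were 337 ± 197 CPM (SD, n = 3) and 301 ± 206 CPM (SD, n = 4), with an exact permutation p of 0.914. The log2 fold change was −0.16 (SE 0.617, edgeR adjusted p = 0.975), and 0.12 with slice culture as a block (adjusted p = 0.959). Within cultures 71, 72 and 74 the VPA library had 109%, 45.1% and 252% of the level of its CTR library, so that no common direction was seen.

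The genes whose levels were most like those of Spp1 over the 7 libraries were Abcc4, Alcam, Ephx1, Acsl5 and Nrg1. Their root mean square differences from Spp1 on centred log2 CPM were 0.246, 0.261, 0.272, 0.279 and 0.289. Alcam, which encodes an adhesion protein, was at 357, 178 and 563 CPM in CTR replicates 1 to 3 and at 200, 322, 506 and 194 CPM in VPA replicates 1 to 4. Abcc4, an export pump, was at 8.31 to 35.1 CPM and Ephx1, a microsomal epoxide hydrolase, at 34.7 to 153 CPM. Acsl5, which activates fatty acids, and Nrg1, a growth factor ligand, ranged from 39.2 to 180 CPM and from 7.10 to 38.4 CPM.

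Slice culture 71 gave the highest level in both groups for Krt8, Spp1 and Cd24a. It was also highest in both groups for the summed level of 18 hepatocyte genes, which was 23366 CPM in its CTR library and 19900 CPM in its VPA library, while the other libraries ranged from 6897 to 17780 CPM. This sum was led by Trf, the iron carrier transferrin, at 8822 and 8931 CPM in these libraries. Without Trf the sum was highest in VPA replicate 1 among the VPA libraries (14679 against 10970 CPM in VPA replicate 3), and not all hepatocyte genes followed it, since Apoa2 and Tdo2 were lowest in slice culture 71 in both groups. The part of the hepatocyte level in these values was not tested.

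Other cholangiocyte genes were read from a list of 40, of which 20 were tested and 4 had no counts in any library. Their summed level was 1284 to 1421 CPM in the CTR libraries and 881 to 1510 CPM in the VPA libraries. In edgeR 0 of the 20 passed after adjustment. At an unadjusted p under 0.05, 1 was higher and 3 were lower, against 3.65% and 4.62% of all genes tested. The median log2 fold change of the 20 was −0.19, and 0.13 with slice culture as a block. With that block, 2 were higher and 4 were lower at an unadjusted p under 0.05, against 3.31% and 4.67% of all genes. DESeq2 called the same 3 lower at an adjusted p under 0.05 and none higher. In DESeq2, 0.754% of all genes were lower and 0.256% were higher at that threshold.

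The 3 lower genes were Cldn3, Cldn4 and Gprc5a. Cldn3, a tight junction claudin, was at 156, 128 and 123 CPM in CTR replicates 1 to 3 and at 38.5, 59.0, 54.6 and 40.8 CPM in VPA replicates 1 to 4 (log2 fold change −1.49, SE 0.208, edgeR adjusted p = 0.112, DESeq2 adjusted p = 6.3e-05). Cldn4, a claudin of duct and gut epithelium, was at 197, 167 and 105 CPM and at 18.3, 45.8, 44.96 and 35.5 CPM in the same order (log2 fold change −2.11, SE 0.3499, edgeR adjusted p = 0.142, DESeq2 adjusted p = 9.6e-05). Neither claudin overlapped between the groups, where 7.41% of all genes tested lay wholly lower with VPA. Gprc5a, an orphan receptor of epithelia, was at 22.5, 20.9 and 35.6 CPM in the CTR libraries and at 0 in all 4 VPA libraries, at least 64.5-fold lower than the CTR mean if 3 counts over the VPA group are allowed (edgeR adjusted p = 0.142, DESeq2 adjusted p = 4.4e-07). This bound covers counting error only. The share of genes listed at 0 despite at least 10 CPM elsewhere was 4.09% to 10.6% in the VPA libraries.

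The gene at a higher level was Onecut2, a transcription factor of the early biliary and hepatic lineage and the most abundant gene of this list. It was at 299, 365 and 351 CPM in CTR replicates 1 to 3 and at 403, 526, 747 and 472 CPM in VPA replicates 1 to 4, with no overlap (log2 fold change 0.66, SE 0.226, edgeR adjusted p = 0.506). Of all genes tested, 4.44% lay wholly higher with VPA. Sctr, Muc1, Ggt1 and Car2 had no counts in any library and Cftr had 9 counts in all, whereas Slc4a2, an anion exchanger, was counted in every library (35.5 ± 9.76 CPM, SD, n = 3, and 32.8 ± 11.8 CPM, SD, n = 4). Aqp1, a water channel of duct and endothelial cells, was at 69.1 to 121 CPM in the CTR libraries and at 0, 97.5, 0 and 85.3 CPM in VPA replicates 1 to 4. Its zeros fell in VPA replicates 1 and 3, which were also the lowest for the endothelial genes described below. These libraries also had the highest shares of unexpected zeros (10.6% and 5.84%).

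**Figure D3:**
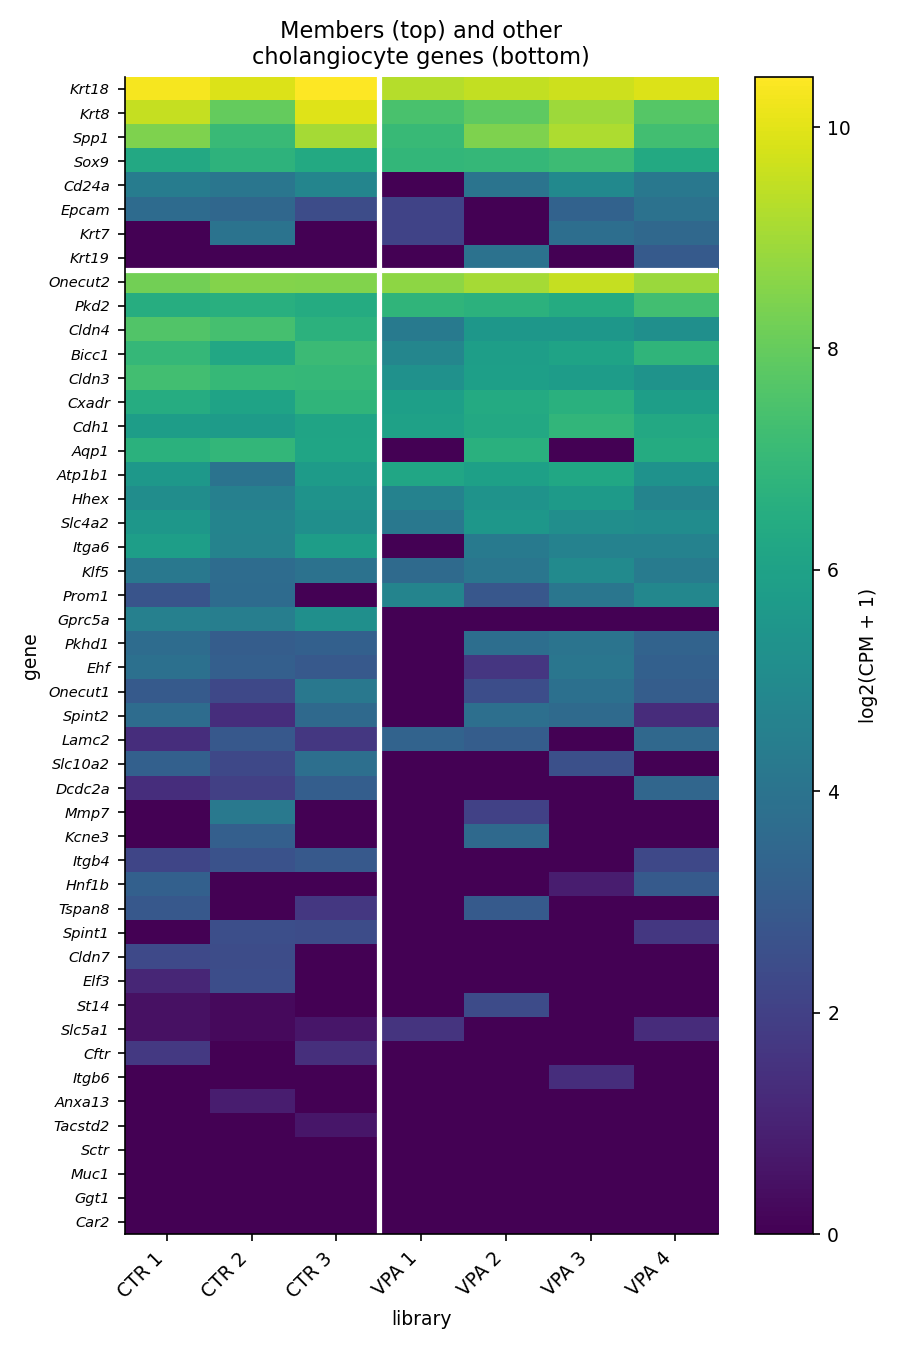
Level as log2(CPM + 1) (colour) of the 8 members (above the white line) and the 40 other cholangiocyte genes (below it), each ordered by mean level (y axis), in the 7 libraries (x axis). Krt18, Krt8 and Spp1 lead the members and Onecut2 leads the others, and the darkest cells, at 0, fall most often in VPA replicate 1.

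The other keratins and the proteins that anchor keratin filaments were read next. Of 8 other keratins of simple or stratified epithelia, 4 had no counts and none was tested. Krt10, a keratin of stratified epithelium, was the most abundant, counted in CTR replicate 1 (13.8 CPM) and VPA replicate 3 (16.9 CPM) and at 0 elsewhere. Of 11 genes of desmosomes and keratin linkers, 9 were tested, with a median log2 fold change of −0.15, and 0 passed after adjustment in edgeR or DESeq2. At an unadjusted p under 0.05, 1 was higher, against 3.65% of all genes tested. It was Dsc2, a desmosomal cadherin (log2 fold change 1.14, SE 0.457, edgeR adjusted p = 0.573). Its level was 24.7 to 50.1 CPM in the CTR libraries and 34.5 to 133 CPM in the VPA libraries, so the groups overlapped. Dsg2, the most abundant desmosomal gene, had means of 187 ± 57.7 CPM (SD, n = 3) and 172 ± 41.0 CPM (SD, n = 4).

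Signals that act on duct cells were read in 3 lists. Notch signalling drives biliary fate, and 6 of its 13 listed genes were tested, with 0 at an unadjusted p under 0.05 and a median log2 fold change of −0.16. Jag1, a Notch ligand, was at 32.7 to 38.2 CPM in the CTR libraries and 29.5 to 83.6 CPM in the VPA libraries. Hes1, a Notch target, had means of 47.4 ± 5.26 CPM (SD, n = 3) and 49.3 ± 25.7 CPM (SD, n = 4). Notch1 was at 51.8 and 32.9 CPM in the libraries of slice culture 74 and at 0.394 to 10.4 CPM in the other libraries.

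YAP and TEAD factors act on growth and on Sox9 in liver. Of 12 genes, 11 were tested. At an unadjusted p under 0.05, 1 was lower and 0 were higher, against 4.62% and 3.65% of all genes tested. The median log2 fold change of the 11 was −0.25. The lower gene was Tead1, at 63.7 to 65.8 CPM in the CTR libraries and 40.0 to 59.4 CPM in the VPA libraries (log2 fold change −0.47, SE 0.202, edgeR adjusted p = 0.595). Ccn2, a YAP target and the most abundant gene of the list, was at 115 to 202 CPM and 125 to 318 CPM. Of 19 genes of ductular reaction signals, 11 were tested, with a median log2 fold change of −0.10. Met, the receptor for hepatocyte growth factor, was the 1 gene lower at an unadjusted p under 0.05, at 38.2 to 72.9 CPM in the CTR libraries and 15.7 to 36.9 CPM in the VPA libraries (log2 fold change −1.09, SE 0.379, edgeR adjusted p = 0.514). Egfr was the most abundant, at 158 ± 68.7 CPM (SD, n = 3) and 174 ± 76.7 CPM (SD, n = 4).

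Osteopontin is read by integrins and by CD44 and is cleaved by matrix metalloproteinases. Of 13 such genes, 10 were tested, with a median log2 fold change of −0.16. At an unadjusted p under 0.05, 1 gene was lower, against 4.62% of all genes tested. It was Cd44, at 62.3, 58.5 and 63.6 CPM in CTR replicates 1 to 3 and 32.6, 37.8, 49.8 and 34.0 CPM in VPA replicates 1 to 4 (log2 fold change −0.67, SE 0.212, edgeR adjusted p = 0.458, DESeq2 adjusted p = 0.418). The groups did not overlap for Cd44, while those of its ligand Spp1 did. Of all genes tested, 7.41% lay wholly lower with VPA. Mmp9 was at 9.46, 9.86 and 5.48 CPM in the CTR libraries and at 0 in all 4 VPA libraries. It failed the low-count filter of edgeR and had a DESeq2 adjusted p of 0.0193. A count of 0 need not mean that the RNA was missing, and unexpected zeros were more common in the VPA libraries. Itgb1, the most abundant receptor gene, had means of 329 ± 64.8 CPM (SD, n = 3) and 294 ± 23.3 CPM (SD, n = 4).

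**Figure D4:**
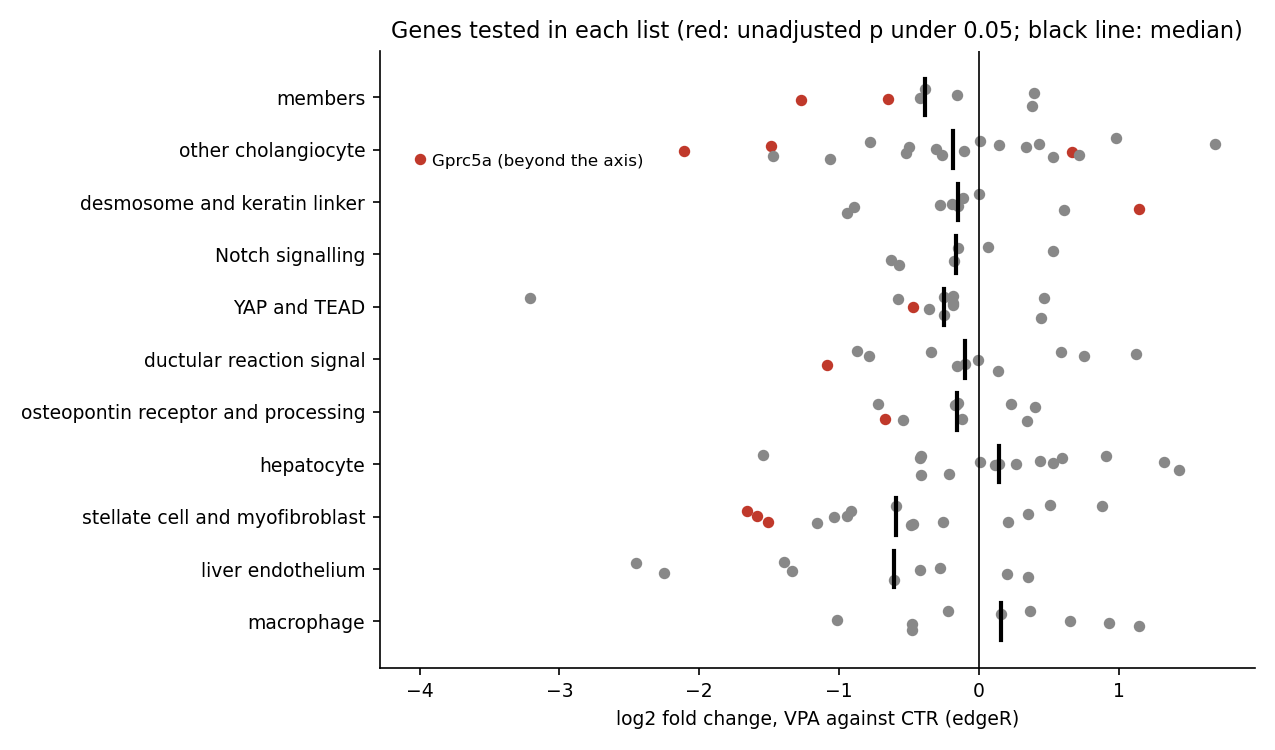
Log2 fold change of VPA against CTR in edgeR (x axis) of each gene tested in the members and in 10 lists (y axis). Red points have an unadjusted p under 0.05, none of them an adjusted p under 0.05, black lines are medians, and Gprc5a lies beyond the axis. The medians run from −0.61 for liver endothelium to 0.16 for macrophage genes, with the members at −0.38.

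Genes of the other cells in a slice were read beside the members. Of 15 hepatocyte genes tested, 0 had an unadjusted p under 0.05, and the summed level was 10365 to 23366 CPM in the CTR libraries and 6897 to 19900 CPM in the VPA libraries. Of 15 stellate cell and myofibroblast genes, 3 were lower at an unadjusted p under 0.05, namely Col1a1, Col1a2 and Col3a1. Over all genes tested, 4.62% were lower. By log2 fold change, 11 of the 15 were lower and 4 were higher. Dcn, the most abundant gene of the list and 1 of these 4, had means of 848 ± 386 CPM (SD, n = 3) and 1204 ± 489 CPM (SD, n = 4, edgeR adjusted p = 0.892). The summed level of the list was 2125 to 4530 CPM in the CTR libraries and 1728 to 3262 CPM in the VPA libraries. DESeq2 called Col1a1 (adjusted p = 4.4e-07) and Col1a2 (adjusted p = 0.000539) lower. The summed level of 10 endothelial genes was 349 to 386 CPM in the CTR libraries and 77.0 to 340 CPM in the VPA libraries, without overlap (exact permutation p = 0.0571). It was lowest in VPA replicates 1 and 3, where 4 and 5 of the 10 genes had counts. These libraries had the highest shares of unexpected zeros. Of 9 endothelial genes tested, 0 had an unadjusted p under 0.05 in edgeR. Macrophage genes, which bear on Spp1, summed to 373 to 498 CPM and 348 to 671 CPM. Mesothelial genes, which share keratins 8, 18, 19 and 7 with duct cells, summed to 33.9 to 56.2 CPM and 1.61 to 45.7 CPM. Of this, Slc9a3r1, also expressed in other epithelia, gave 30.7 to 34.3 CPM in the CTR libraries and 24.2, 25.2, 0 and 24.2 CPM in VPA replicates 1 to 4. The defining mesothelial gene Msln was at 1.18, 2.37 and 0 CPM in CTR replicates 1 to 3 and at 0 in the VPA libraries, from 15 counts in all. Upk3b, Upk1b and Lrrn4 had counts in CTR replicate 2 only. Wt1 was at 0, 5.12 and 0 CPM in CTR replicates 1 to 3 and 19.6, 0, 0 and 3.02 CPM in VPA replicates 1 to 4. Gpm6a had means of 2.45 CPM (CTR) and 3.98 CPM (VPA). The list thus had no common direction. Leukocyte and erythroid genes summed to 15.8 to 22.5 CPM and 7.07 to 40.1 CPM. With slice culture as a block, the genes at an unadjusted p under 0.05 were 1 higher and 6 lower for stellate cells, 1 higher and 1 lower for hepatocytes, 1 lower for endothelium and 1 higher for macrophages, with 0 passing after adjustment in edgeR. In that fit 3.31% of all genes were higher and 4.67% were lower at an unadjusted p under 0.05. The part of these cells in the members' levels was not tested.

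Few sequences close to a member's transcript end were found. No other annotated transcript matched the last 400 bases of a member over at least 80 bases at 95% identity, except Gm42793, which overlaps Spp1 on the same strand and had 6 counts in all. The most identical of the long matches of Krt18 was to a pseudogene, Gm5200, at 92.1% identity over 331 bases, with 5 counts in all. Genes on the other strand overlap Krt7 (Gm671) and Krt8 (Gm36026), and both had 0 counts. Whether the counting used strand is not stated in the sources used here.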

How the data were processed

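Total RNA of PCLS was made into 3′ end libraries (QuantSeq FWD). The authors trimmed the reads, mapped them to GRCm38 (mm10) with STAR, used StringTie, and deposited raw counts per Ensembl gene, 1 column per library. The counting program is not given in the sources used here. Symbols and positions came from GENCODE, and 260 genes had none. Counts were tested in R 4.3.3 with edgeR 4.0.16 (filterByExpr, TMM, robust quasi-likelihood fit, condition only) over 10876 genes, and p-values were adjusted by Benjamini-Hochberg (threshold 0.05). DESeq2 1.42.0 and limma-voom 3.58.1 were alternatives, with other normalizations, filters, blocks and each library left out. CPM used TMM-scaled totals of the genes tested. Single values were compared by exact permutation over 35 regroupings. Code was tested on simulated data. Copies were sought with blastn 2.17.0. Named genes were the members, the genes with an adjusted p under 0.05, otherwise up to 3 per list with the smallest p and at least 5 CPM, the most abundant, and the 5 nearest patterns of Krt19 and Spp1; others, such as Aqp1, Slc4a2, Mmp9 and Msln, were named after their values were seen. The members and lists were chosen with earlier results of these data known. The slice culture number in the titles was fitted as a block in an alternative. Deviations of libraries that share it correlated at 0.0256 to 0.107.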

Additional observations from a re-analysis of the deposited data

Results flagged for a closer look

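Among 26 measures checked in the 4 VPA libraries, 3 had a library far from the others, where chance gives about 1 in 20. VPA replicate 2 had a total of 3102450 counts, against 1400887 to 1515954 in the other VPA libraries, and this library held most of the Krt19 counts. The summed level of the 8 other keratins was 19.3 CPM in VPA replicate 3, which came from Krt10 and Krt5, both keratins of stratified epithelium, while Krt20 and Krt23, keratins of simple epithelium, had no counts. The summed level of macrophage genes was 671 CPM in VPA replicate 4, where Spp1 was at 156 CPM.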

How the results depend on the processing

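The number of genes called in edgeR was 1, and it was 154 with DESeq2, 36 with at least 10 counts in every library, 10 without a low-count filter and 0 to 2 with each library left out. Krt18 stayed lower at an unadjusted p under 0.05 in 17 of 17 alternatives, Krt8 in 9 of 17, and Sox9 was higher in 2 of 17. Members at an unadjusted p under 0.05 numbered 1 with limma-voom (lower, as were 9.95% of all genes), 3 without a low-count filter (Krt19 higher, Krt8 and Krt18 lower, where 1.54% of all genes were higher and 4.88% lower) and 1 to 2 with each library left out (1.79% to 4.06% of all genes higher, 2.83% to 6.22% lower). The members' median log2 fold change ranged from −0.67 to 0.029 with each library left out. Members without overlap numbered 1 to 3, with Krt8, Krt18 and Sox9 without CTR replicate 2 (14.0% of all genes lower, 8.74% higher), 2 without VPA replicate 3 (Krt8 and Krt18, 11.4% lower) and 2 without VPA replicate 4 (Krt18 and Sox9, 12% lower and 8.02% higher). Signs turned for members that passed no test. Krt7 was at −0.46 with limma-voom and −0.19 to 6.70 in the 5 leave-outs that tested it, Spp1 at −0.68 to 0.30, Cd24a at −0.91 to 0.029 and Epcam at −1.17 to 0.013 with each library left out. Over all alternatives Cd24a reached −1.17 (replicate number as a block) and Epcam −2.93 (limma-voom). The cause was not tested. Libraries with a shared number deviated together only weakly (correlations 0.107, 0.0256 and 0.0546 by slice culture, −0.0539, 0.0546 and 0.107 by replicate number), and 3 pairs leave these imprecise. Both numberings share the pairs of replicates 2 and 3, which are cultures 74 and 71, so they are not separate checks. The replicate number instead sets CTR replicate 1 of culture 72 beside VPA replicate 1 of culture 73. With slice culture as a replicate block, 0 genes were called, 1 member (Krt18) had an unadjusted p under 0.05, the median was −0.0062 and Spp1 was at 0.12. With the replicate number as a block, 0 genes were called, the median was −0.76, Krt18 (lower) and Sox9 (higher) had an unadjusted p under 0.05 (5.63% of all genes lower, 3.42% higher), Spp1 was at 0.040 and Epcam at −1.96. No annotated copy of Krt8, Krt18 or Cd24a reached the identity set, so summing with copies gave no value. Krt7, Krt19 and Epcam rested on 109, 55 and 124 counts in all, and their zeros were not limited to shallow libraries, since VPA replicate 2, with 3102450 counts, had none of Krt7 or Epcam.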
